A study of Homo sapiens with 6 samples.

Results

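The copper handling genes are the 10 genes CP, ATP7A, ATP7B, SLC31A1, SLC31A2, ATOX1, CCS, COMMD1, SOD1 and SCO1. They were found by Entrez identifier among 18030 genes, and all 10 were measured, through 33 of 80668 RefSeq transcripts. RNA was sequenced from Huh-7, a line derived from a human hepatocellular carcinoma, in 3 oeALKBH5 libraries and 3 control libraries. The oeALKBH5 cells carry the genotype label ALKBH5 overexpression and received a plasmid expressing ALKBH5, a demethylase of N6-methyladenosine in RNA, by electroporation (3 pulses of 1250 V and 20 ms), with RNA taken 60 h later. The control cells are labelled WT. The same protocol text stands beside the controls, so the labels do not say whether these were electroporated, and all 6 samples are also labelled untreated. The sample titles call the numbered replicates biological ("biol rep"), but whether each had its own transfection is not stated. The p-values therefore reflect only how these libraries scatter, and part or all of that scatter may be technical.

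Copper is both a cofactor and a toxin, and cells pass it from hand to hand. SLC31A1 (CTR1) takes up copper at the plasma membrane, small chaperones such as ATOX1 and CCS carry it through the cytosol, and the ATPases ATP7A and ATP7B pump it into the secretory pathway or out of the cell. In hepatocytes ATP7B loads copper onto ceruloplasmin (CP), the main copper protein of plasma, and sends the excess to bile; its loss causes Wilson disease. Loss of ATP7A, the form used by most other tissues, causes Menkes disease.

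CP and ATP7B were higher in oeALKBH5 cells, and ATP7A, SOD1, SCO1 and SLC31A1 were lower. CP rose 1.52-fold and ATP7B 1.13-fold. ATP7A was 1.41-fold lower, SOD1 1.21-fold, SCO1 1.16-fold and SLC31A1 1.1-fold. COMMD1, ATOX1, CCS and SLC31A2 did not pass the test. Thus 6 of 10 genes passed at an adjusted p under 0.05 (edgeR's quasi-likelihood test, Benjamini-Hochberg over 14168 genes), 2 higher and 4 lower. Among all tested genes 42.8% passed, 20.8% higher and 22.0% lower, so the share of 6 in 10 has to be read against a transcriptome in which many genes moved. Of the 10 genes 0 passed with a change of at least 1 on the log2 scale, which 2.14% of all tested genes did. Their median log2 fold change was -0.14, beside 0.01 for all tested genes, and their median absolute change was 0.19, beside 0.19. The 2 groups of libraries did not overlap in CPM (estimated counts relative to the TMM-scaled library size) for 7 of the 10 genes, beside 52.8% of all tested genes.

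**Figure D1:**
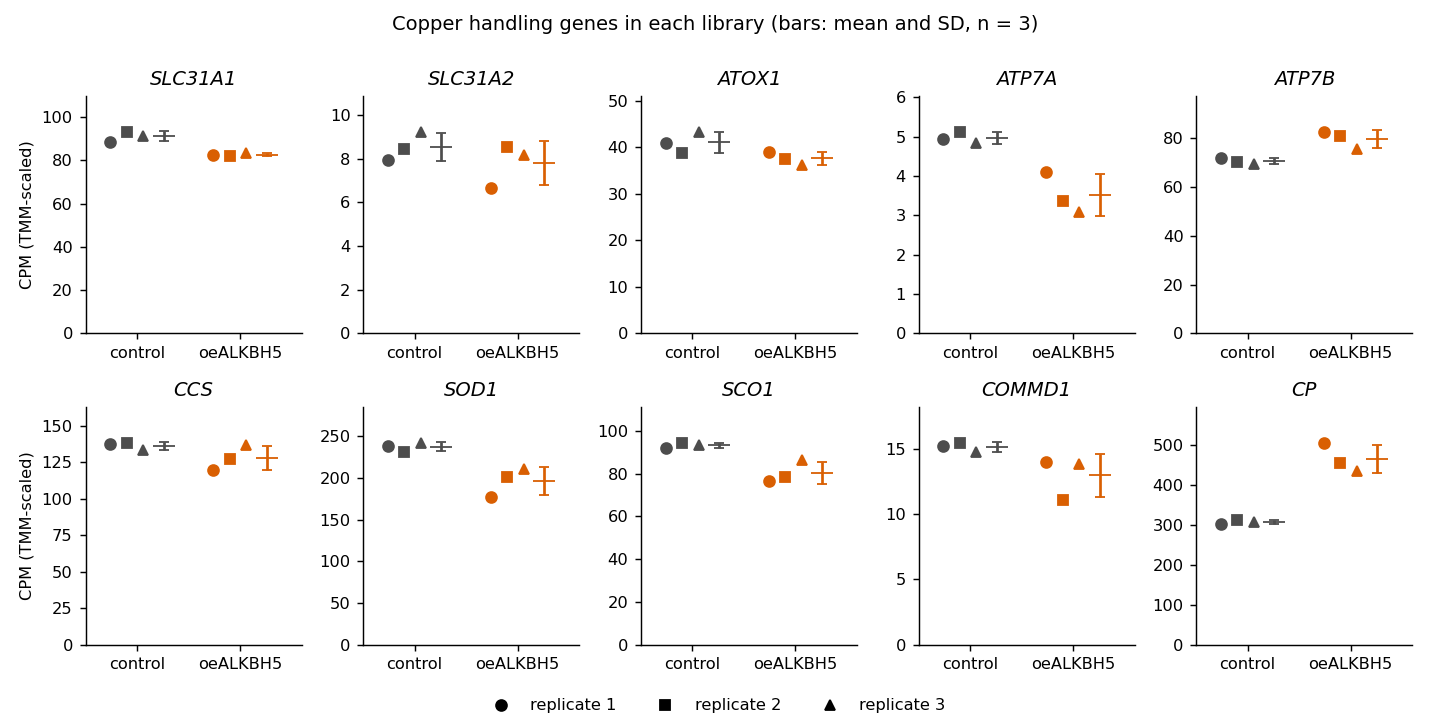
TMM-scaled CPM of each of the 10 genes in the 3 control libraries (grey) and the 3 oeALKBH5 libraries (orange); the marker shape gives the replicate, the bars are mean and SD, and each axis starts at 0. CP stands at 435 to 504 in oeALKBH5 against 302 to 311 in control, while SLC31A2, ATOX1 and CCS overlap between the groups.

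The libraries held between 18607084 and 19378030 estimated counts. The plasmid's target was higher in every oeALKBH5 library: ALKBH5 stood at 169, 133 and 110 CPM against 70.5, 74.2 and 75.5 in control (log2 fold change 0.90, SE 0.177, edgeR adjusted p = 0.0154). That call was lost without control replicate 2 (edgeR adjusted p = 0.0529) and without control replicate 3 (0.0589), and with the replicate number as a block (0.0538). All 10 hepatocyte markers listed were measured, with a summed FPKM (fragments scaled by transcript length and depth) of 8195 to 8937 in oeALKBH5 and 12655 to 12926 in control. Of those 10 markers 9 fell, 1 did not pass and 0 rose, where 22.0% of all tested genes were lower and 20.8% higher. Lymphocyte markers summed to 0.98 to 1.74 FPKM over all 6 libraries. Endothelial markers summed to 3.02 to 3.26 in oeALKBH5 and 4.58 to 5.47 in control, nearly all of it PECAM1. Cholangiocyte markers summed to 92.5 to 109 in oeALKBH5 and 117 to 119 in control. Of these KRT19 fell (log2 fold change -0.57), SOX9 rose (0.30) and KRT7 did not pass. Macrophage markers summed to 85.9 to 101 in oeALKBH5 and 86.2 to 88.4 in control. Most of that was CD68, which did not pass, while MARCO fell (-0.84). Fewer cells expressing a gene and less RNA per cell cannot be told apart in such bulk samples.

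Per transcript length the 10 genes covered a wide range of levels. In control libraries the order by summed FPKM was SOD1 (273 ± 4.89), CCS (131 ± 2.82), ATOX1 (94.6 ± 4.92), CP (71.0 ± 1.35), SLC31A1 (18.8 ± 0.587), COMMD1 (16.9 ± 0.452), ATP7B (10.6 ± 0.185), SCO1 (9.53 ± 0.181), SLC31A2 (4.55 ± 0.405) and ATP7A (0.573 ± 0.0252; SD, n = 3). No neighbours in that order overlapped in their 3 control libraries. In oeALKBH5 CP moved above ATOX1, at 114 ± 9.83 FPKM against 91.5 ± 3.87. There, CP overlapped with CCS (129 ± 7.80) and COMMD1 (14.2 ± 2.1) with ATP7B (12.7 ± 0.666). ATP7B, the copper ATPase of liver, was far above ATP7A in all 6 libraries.

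**Figure D2:**
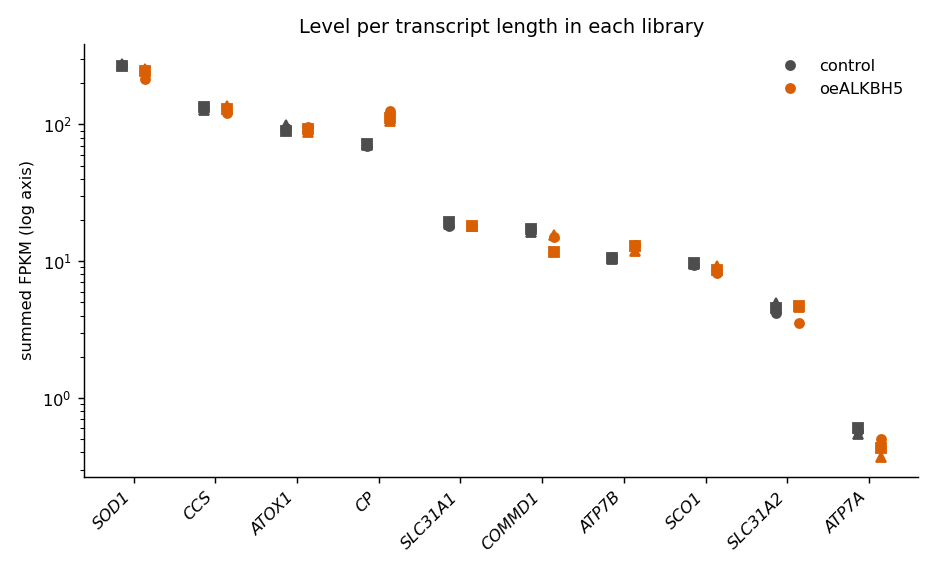
Summed FPKM of each gene on a log axis, in order of the control mean; circles, squares and triangles are replicates 1, 2 and 3, control in grey and oeALKBH5 in orange. SOD1 is highest at 215 to 278 and ATP7A lowest at 0.37 to 0.60; CP is the gene whose place in the order shifts, from below to above ATOX1.

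The copper ATPases moved in opposite directions. ATP7B (Entrez 540; chromosome 13, 51930436 to 52012125, minus strand; GRCh38, GENCODE release 29) is the hepatocyte form. It was at 82.6, 80.9 and 75.6 CPM in oeALKBH5 and at 72.1, 70.4 and 69.5 in control. Every oeALKBH5 library was above every control, by a small margin between the lowest and the highest of them. The log2 fold change was 0.17 (SE 0.0516, edgeR adjusted p = 0.0102). Without control replicate 3 the call was lost (edgeR adjusted p = 0.0556). On FPKM the gene rose as well (0.24, SE 0.0552, limma adjusted p = 0.00506).

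ATP7A (Entrez 538; chromosome X, 77910656 to 78050395, plus strand) was at 4.11, 3.37 and 3.08 CPM in oeALKBH5 and at 4.94, 5.12 and 4.83 in control. All 3 oeALKBH5 libraries lay below the controls. These levels rest on 79, 65 and 59 estimated counts against 92, 97 and 91, the fewest of the 10 genes. The log2 fold change was -0.50 (SE 0.146, edgeR adjusted p = 0.00984), and -0.49 with DESeq2, where the adjusted p was 0.0514. At 0.37 to 0.60 FPKM the gene was under the filter of the FPKM test. Within each library the ratio of ATP7A to ATP7B does not depend on scaling: it was 0.0378, 0.0333 and 0.031 in oeALKBH5 and 0.0527, 0.0564 and 0.0527 in control (FPKM). The log2 ratio was lower by 0.67 in oeALKBH5, with no overlap between groups (exact permutation test, two-sided, p = 0.1, the smallest that 3 against 3 libraries allow; 0.2 adjusted over 6 ratios).

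The starts of both ATPase genes are shown because these paralogs moved apart. Windows of 250 bases before the annotated start were matched for 7 of the 10 genes (11 windows, RefSeq sequences on GRCh38.p14). Capitals mark the core of the hypoxia response element, ACGTG or GCGTG, or of the metal response element, TGCACNC or TGCGCNC, on either strand. A palindromic match is counted on both strands, and neighbouring cores may share bases. The windows are written 5′ to 3′ on the gene's own strand, ATP7A at chrX:77910443-77910655 (plus strand, cut before the first annotated exon base) and the outermost ATP7B start at chr13:52012133-52012382 (minus strand).
ATP7A: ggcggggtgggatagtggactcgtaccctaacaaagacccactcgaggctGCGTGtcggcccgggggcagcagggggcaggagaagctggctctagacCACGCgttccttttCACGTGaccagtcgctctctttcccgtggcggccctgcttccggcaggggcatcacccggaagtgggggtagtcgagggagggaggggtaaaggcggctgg
ATP7B: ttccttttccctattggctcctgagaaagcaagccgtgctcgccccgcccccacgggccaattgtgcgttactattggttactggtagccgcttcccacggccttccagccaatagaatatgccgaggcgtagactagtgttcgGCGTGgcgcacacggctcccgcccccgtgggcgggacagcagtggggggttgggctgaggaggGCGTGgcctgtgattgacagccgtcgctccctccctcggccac
The ATP7A stretch held 4 matches to the hypoxia core and the ATP7B stretch 2, and both held 0 to the metal core. A second ATP7B window, which reaches into an annotated exon of the gene, held 2 metal cores. It overlaps the window printed above and holds the same 2 hypoxia cores, so these bases enter the next count more than once. Over the 11 windows, 5 held a metal core (in COMMD1, ATOX1, CCS and ATP7B) and 6 a hypoxia core. Among all 35116 windows of that length 24.8% held a metal core and 43.2% a hypoxia core. A match describes letters in a window and is not a bound site.

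CP showed the largest log2 fold change of the 10, except without oeALKBH5 replicate 1, where ATP7A was at -0.62 and CP at 0.54. It encodes ceruloplasmin, a multicopper ferroxidase secreted by hepatocytes (Entrez 1356; chromosome 3, 149162410 to 149222055, minus strand). Its level was 504, 454 and 435 CPM in oeALKBH5 and 302, 311 and 306 in control, or 464 ± 35.4 against 307 ± 4.17 (SD, n = 3). The lowest oeALKBH5 library was well above the highest control, and the oeALKBH5 libraries differed more among themselves. The log2 fold change was 0.60 (SE 0.0511, edgeR adjusted p = 1.63e-08), and 91.6% of tested genes changed less in either direction. On FPKM it was 0.68 (SE 0.0571, limma adjusted p = 6.32e-06). The ratio of CP to ATP7B, the pump that loads it, was 9.47, 8.65 and 8.87 in oeALKBH5 and 6.45, 6.81 and 6.79 in control. This log2 ratio was higher by 0.43 (exact permutation p = 0.1, 0.2 adjusted over 6 ratios).

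**Figure D3:**
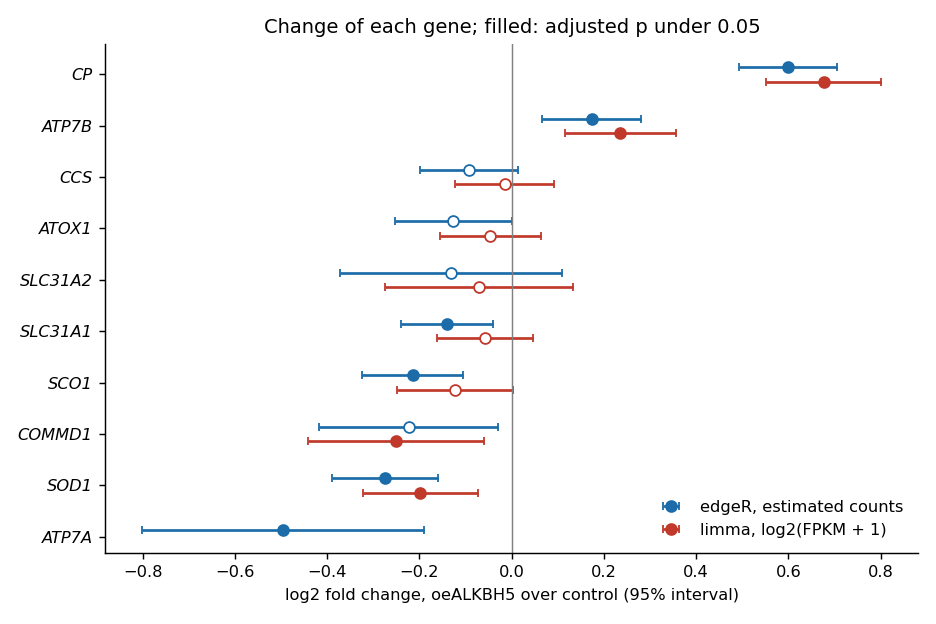
Log2 fold change of each gene with its 95% interval, from edgeR on estimated counts (blue) and from limma on log2(FPKM + 1) (red); filled points passed an adjusted p of 0.05. CP and ATP7B lie above 0 on both scales, and every other gene with both points lies below 0 on both. Of the lower genes only SOD1 is filled on both scales. ATP7A has no FPKM point because it was filtered.

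SOD1 and SCO1, which receive copper for enzymes of the cytosol and of mitochondria, were lower. SOD1 (Entrez 6647; chromosome 21, 31659622 to 31668931, plus strand) encodes the cytosolic copper-zinc superoxide dismutase. It was at 177, 201 and 211 CPM in oeALKBH5 and at 239, 232 and 242 in control. The groups did not overlap, and oeALKBH5 replicate 1 was the lowest. Its log2 fold change was -0.27 (SE 0.0550, edgeR adjusted p = 5.25e-04) on counts and -0.20 (SE 0.0568, limma adjusted p = 0.0146) on FPKM. The FPKM call was lost when the FPKM were rescaled to the same sum in each library (-0.13, limma adjusted p = 0.0502). It was also lost without control replicate 1 (0.0502) and control replicate 3 (0.0534).

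SCO1 (Entrez 6341; chromosome 17, 10672474 to 10698375, minus strand) helps deliver copper to cytochrome c oxidase. It stood at 76.4, 78.7 and 86.3 CPM in oeALKBH5 and at 92.1, 94.4 and 93.6 in control. Again the oeALKBH5 libraries were all below the controls. The log2 fold change was -0.21 (SE 0.0526, edgeR adjusted p = 0.00265). On FPKM the change was -0.12 and did not pass (95% interval -0.25 to 0.00, limma adjusted p = 0.1003), but it passed without oeALKBH5 replicate 3 (-0.16, limma adjusted p = 0.0404). Its relative SCO2 was lower as well (-0.24, SE 0.0868, edgeR adjusted p = 0.0307). The ratio of SCO1 to SCO2 was 0.56 to 0.611 in oeALKBH5 libraries and 0.554 to 0.588 in controls, so the groups overlapped (exact permutation p = 0.6, 0.8 adjusted over 6 ratios).

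The copper importer fell slightly and its relative gave no call. SLC31A1 (Entrez 1317; chromosome 9, 113221562 to 113264492, plus strand) was at 82.7, 81.8 and 83.5 CPM in oeALKBH5 and at 88.7, 93.2 and 91.5 in control. The oeALKBH5 libraries lay close together, all below the controls. The log2 fold change was -0.14 (SE 0.0479, edgeR adjusted p = 0.0230). With library size alone as scaling it was -0.06 (edgeR adjusted p = 0.317), and on FPKM it was -0.06 (limma adjusted p = 0.342). The call was also lost without oeALKBH5 replicate 2 (edgeR adjusted p = 0.0883), control replicate 2 (0.105) and control replicate 3 (0.0793).

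SLC31A2 (Entrez 1318; chromosome 9, 113150942 to 113164137, plus strand), a relative that lies near SLC31A1, was at 6.65, 8.56 and 8.19 CPM in oeALKBH5 and at 7.95, 8.45 and 9.24 in control. The groups overlapped, with oeALKBH5 replicate 1 apart at the low end. Its log2 fold change of -0.13 had a 95% interval of -0.37 to 0.11 (edgeR adjusted p = 0.377). The ratio of SLC31A1 to SLC31A2 was 3.81 to 5.07 in oeALKBH5 libraries and 3.80 to 4.38 in controls (exact permutation p = 0.8, and 0.8 adjusted over 6 ratios).

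Neither cytosolic chaperone passed. ATOX1 (Entrez 475; chromosome 5, 151742316 to 151772532, minus strand) hands copper to the ATPases. It was at 39.0, 37.6 and 36.2 CPM in oeALKBH5 and at 41.0, 38.8 and 43.3 in control. The highest oeALKBH5 library overlapped the lowest control (log2 fold change -0.13, 95% interval -0.25 to 0.00, edgeR adjusted p = 0.102). It passed without oeALKBH5 replicate 1 (-0.15, edgeR adjusted p = 0.0435). CCS (Entrez 9973; chromosome 11, 66592821 to 66606019, plus strand) inserts copper into SOD1. Its level was 120, 127 and 137 CPM in oeALKBH5 and 138, 138 and 133 in control, overlapping through oeALKBH5 replicate 3. The log2 fold change was -0.09 (95% interval -0.20 to 0.01, edgeR adjusted p = 0.152), and -0.14 without that library (edgeR adjusted p = 0.0213).

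The chaperone stood higher against its target. CCS was 0.564, 0.527 and 0.541 times SOD1 in oeALKBH5 (FPKM) and 0.480, 0.497 and 0.459 times in control. The groups did not overlap, and the log2 ratio was higher by 0.18 (exact permutation p = 0.1, 0.2 adjusted over 6 ratios). ATOX1 against CCS was 0.638 to 0.782 in oeALKBH5 libraries and 0.676 to 0.782 in controls (exact permutation p = 0.8, and 0.8 adjusted over 6 ratios).

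COMMD1, which acts in copper export with ATP7B and in endosomal sorting, lay close to the threshold. The gene (Entrez 150684; chromosome 2, 61888724 to 62147247, plus strand) was at 14.03, 11.1 and 13.8 CPM in oeALKBH5 and at 15.3, 15.5 and 14.8 in control. The groups did not overlap, and oeALKBH5 replicate 2 was the lowest. Its log2 fold change was -0.22 (SE 0.0930, edgeR adjusted p = 0.0589), and -0.12 without oeALKBH5 replicate 2 (edgeR adjusted p = 0.329). It passed without the filter (edgeR adjusted p = 0.0491), without oeALKBH5 replicate 1 (0.0150) and without replicate 3 (0.0341). On FPKM it passed (-0.25, SE 0.0870, limma adjusted p = 0.0355). That call was lost without oeALKBH5 replicate 2 and each control replicate in turn (limma adjusted p from 0.0606 to 0.104). It was lost too without the filter (limma adjusted p = 0.0847) and with FPKM rescaled to the same sum (0.0885).

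On FPKM as a whole, 9 of the 10 genes were tested, with CP and ATP7B higher and SOD1 and COMMD1 lower. Among all 12016 genes tested there 45.9% passed, and 29.4% were higher and 16.5% lower. The sums of FPKM were 484573 to 498661 in oeALKBH5 and 512667 to 518953 in control libraries. With FPKM rescaled to the same sum, 0 of the 9 genes were lower by limma at the adjusted p and 2 were higher.

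Changes over all genes varied with transcript length. The tested genes were split into 10 length bins of nearly equal size, by the length implied by the counts and FPKM, with bin 1 the shortest. The median log2 fold change was -0.18 in bin 1 and 0.13 in bin 10. SOD1, COMMD1, CCS and ATOX1 belong to bin 1, in which 45.6% of genes were lower and 8.19% higher. ATP7A and SCO1, both lower, belong to bin 10, in which 9.17% of genes were lower and 34.7% higher. SLC31A1 lies in bin 8, whose median was 0.06, and SLC31A2 in bin 3, with a median of -0.03. CP and ATP7B lie in bins 7 and 9, with medians of 0.04 and 0.08. The part of length in these results was not tested.

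At the level of single transcripts 1 CP isoform passed. Of the 33 transcripts 26 were tested, and the 1 that passed, NM_000096.4 of CP, was higher. Among all 45502 transcripts tested 1.01% passed, 0.281% higher and 0.732% lower. The control libraries gave NM_000096.4 4079, 4215 and 4150 estimated counts, and the oeALKBH5 libraries 6325, 6238 and 5904. The 2 groups were far apart, and its log2 fold change was 0.54 (SE 0.0337, edgeR adjusted p = 0.00661). It made up 65.5% ± 3.67 of CP's FPKM in oeALKBH5 and 68.6% ± 0.322 in control (SD, n = 3). The predicted transcript XM_006713501.3 went from 14.3% ± 2.64 to 16.9% ± 5.79, and XM_006713499.3 from 12.3% ± 1.0 to 9.06% ± 1.31. Estimated counts of similar isoforms trade off against each other, and this call was lost with the replicate block (edgeR adjusted p = 0.139) and without oeALKBH5 replicate 2 or each control replicate in turn (0.0641 to 0.0927).

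For ATP7B the isoform estimates were too variable to say which transcript rose. NM_000053.4 took 24.7%, 62.4% and 41.6% of its FPKM in the oeALKBH5 libraries and 42.0%, 49.9% and 54.4% in control. Its log2 fold change was 0.00 (SE 0.336, edgeR adjusted p = 1.0). NM_001243182.1 took 35.97% ± 3.95 in oeALKBH5 and 29.8% ± 8.66 in control. Another transcript, NM_001330578.1, was at 0 counts in oeALKBH5 replicate 2 and at 244 and 112 in replicates 1 and 3. In ATP7A the main transcript NM_000052.7 held 48.1, 38.5 and 59.4 counts in oeALKBH5 against 81.5, 97.25 and 90.6, without overlap (log2 fold change -0.91, SE 0.368, edgeR adjusted p = 0.473). The other transcript, NM_001282224.1, was at 30.5, 26.9 and 0 counts in oeALKBH5 and at 10.8, 0 and 0 in control. COMMD1 and SLC31A2 were each dominated by 1 transcript, at 94.4% ± 0.366 and 92.0% ± 1.85 of their FPKM in oeALKBH5. By estimated counts, which the gene test used, the shares were lower. For COMMD1 the main transcript held 69.1% ± 2.77 of counts in oeALKBH5 and 76.4% ± 1.49 in control. For SLC31A2 it held 82.7% ± 4.02 and 85.0% ± 1.86. SLC31A1, ATOX1, CCS, SOD1 and SCO1 have 1 transcript each in the tables.

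**Figure D4:**
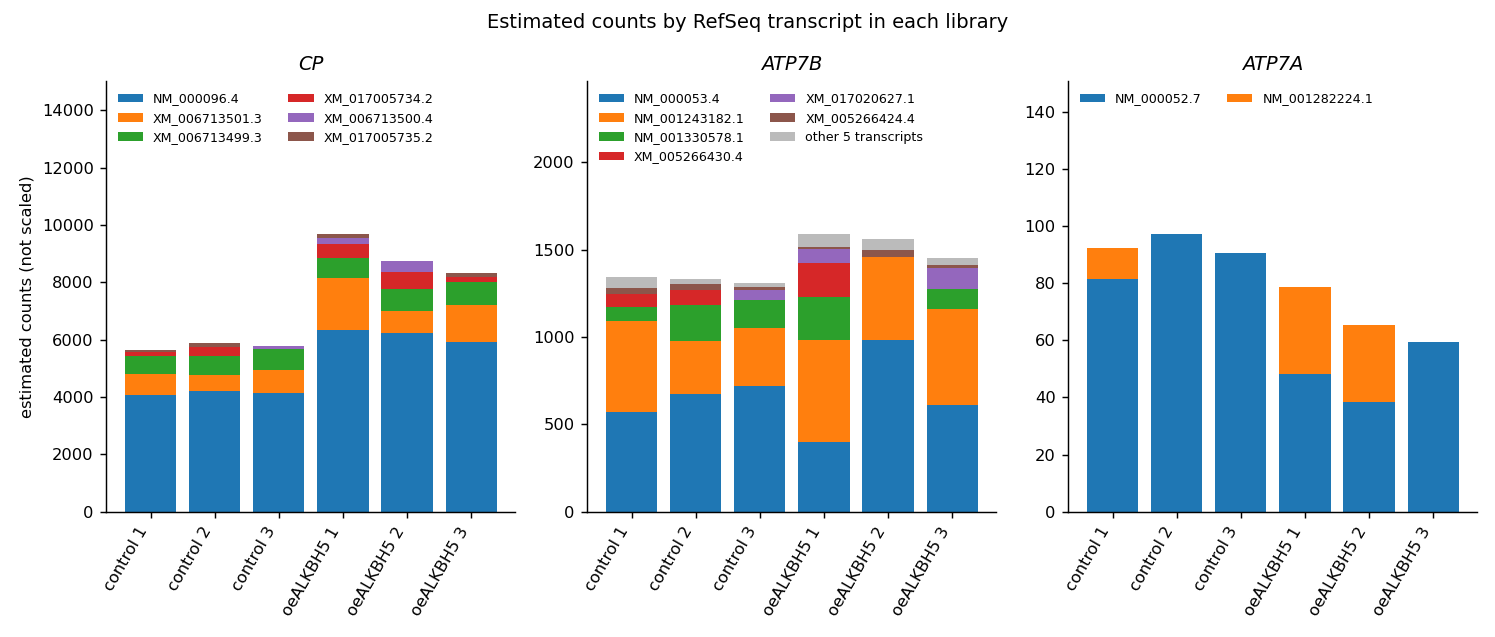
Estimated counts, not scaled between libraries, of the RefSeq transcripts of CP, ATP7B and ATP7A stacked in each of the 6 libraries. NM_000096.4 (blue, left) makes up most of CP and is taller in every oeALKBH5 bar, while the parts of ATP7B change size between libraries of the same group.

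Exons of 6 of these genes overlap exons of another protein-coding gene in GENCODE. CP overlaps HPS3, SLC31A2 overlaps FKBP15, ATOX1 overlaps G3BP1, CCS overlaps CCDC87 and COMMD1 overlaps CCT4, each on the opposite strand, while ATP7A overlaps PGK1 on the same strand. The strand setting of the counting is not given in the sources used here, so reads of such pairs may be shared. FKBP15 was at 55.0 ± 2.23 against 48.0 ± 1.93 CPM, far above SLC31A2, and rose (log2 fold change 0.20, edgeR adjusted p = 0.00791). G3BP1, far above ATOX1, was at 161 ± 5.88 against 153 ± 4.99 CPM and did not pass (edgeR adjusted p = 0.219). CCDC87 was far below CCS, at 4.70 ± 0.138 against 5.36 ± 0.388 CPM. HPS3 was at 43.5 ± 2.68 CPM in oeALKBH5 and 38.3 ± 1.61 in control, far below CP. Like CP, HPS3 was higher in oeALKBH5 (log2 fold change 0.18, edgeR adjusted p = 0.0223). CCT4 was at 394 ± 26.7 against 458 ± 4.47 CPM (log2 fold change -0.22, edgeR adjusted p = 0.00119), far above COMMD1 and lower in oeALKBH5 by a like amount. PGK1 was at 268 ± 20.0 against 262 ± 4.44 CPM, far above ATP7A (log2 fold change 0.03, edgeR adjusted p = 0.652).

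The wider set of copper genes was described through 6 lists. Of 69 genes tested 18 were higher and 28 lower, where 20.8% and 22.0% of all tested genes were. With library size alone the counts were 19 and 19, where 30.1% of all tested genes were higher and 14.4% lower. The most abundant member of a list is that with the highest mean FPKM over the 6 libraries. Genes that bring copper to cytochrome c oxidase were lower with SCO1: of 9 tested, 8 fell and 0 rose (22.0% and 20.8% of all tested genes), with a median log2 fold change of -0.24. COA6, a copper-binding assembly factor, went from 28.5 ± 0.579 to 20.5 ± 2.70 CPM (-0.48, SE 0.0818, edgeR adjusted p = 1.06e-04). SLC25A3, the phosphate carrier that also brings copper into mitochondria, fell from 516 ± 4.94 to 437 ± 15.6 CPM (-0.24, SE 0.0440), and the small assembly factor COX19 by 0.27. COX11, at -0.01, did not pass. Of these 9 genes 7 lie in the 3 shortest length bins, and the median of their bins' medians was -0.18. With library size alone 5 of the 9 were lower, beside 14.4% of all tested genes.

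The partners of COMMD1 in the Commander complex, which recycles membrane proteins from endosomes, were mostly lower too. Of 15 tested, 10 fell and 1 rose (22.0% and 20.8% of all tested genes), with a median of -0.21 beside -0.09 for the median of their length bins' medians. COMMD9 went from 55.1 ± 2.2 to 38.3 ± 1.15 CPM (-0.53, SE 0.0566, edgeR adjusted p = 4.12e-07). COMMD7 fell by 0.38 and COMMD5 by 0.45 on the log2 scale. COMMD4, the most abundant partner by FPKM (89.3 in oeALKBH5 and 80.3 in control, where VPS29 was at 80.1), was at 73.4 ± 9.80 against 67.8 ± 5.13 CPM and did not pass (edgeR adjusted p = 0.329). The scaffold CCDC93 rose (0.17, edgeR adjusted p = 0.0217), a call lost without either of oeALKBH5 replicates 1 and 2 or any control replicate (0.0538 to 0.0893). With library size alone 6 of the 15 were lower, beside 14.4% of all tested genes.

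Copper enzymes outside the 10 genes went both ways, with larger changes. Of 15 tested, 7 rose and 3 fell (20.8% and 22.0% of all tested genes), with a median of 0.24. These 15 include the copper-binding clotting factors F5 and F8, which did not pass. LOXL2, a lysyl oxidase that crosslinks matrix proteins, was 2.99-fold higher, from 5.03 ± 0.749 to 15.1 ± 1.54 CPM (1.58, SE 0.117, edgeR adjusted p = 2.22e-09). LOX rose 1.75-fold to 110 ± 17.6 CPM; it was the most abundant by FPKM over all libraries, while HEPH and LOXL4 stood above it in control. PAM, which amidates peptide hormones, rose 1.43-fold and the extracellular superoxide dismutase SOD3 1.93-fold. HEPH, the membrane-bound relative of ceruloplasmin, fell 1.51-fold, from 71.5 ± 1.48 to 47.2 ± 3.22 CPM (-0.60, SE 0.0566, edgeR adjusted p = 7.32e-08). The diamine oxidase AOC1 was 2.60-fold lower and the dopamine hydroxylase DBH 1.59-fold, at levels under 5 CPM. Beside these lysyl oxidases the 5 fibroblast markers summed to 5.54 to 5.70 FPKM in oeALKBH5 and 3.91 to 4.11 in control. COL1A1 and COL1A2 rose (log2 fold change 1.07 and 0.92). COL3A1 (0.20) and PDGFRB (-0.20) did not pass, and DCN was too low to be tested. The part of these markers in the result was not tested.

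Lists tied to copper toxicity and copper reduction gave mixed calls. Of 10 genes of lipoylation and pyruvate dehydrogenase, whose proteins are hit in copper-induced death, 4 fell and 1 rose, in all a share near the 42.8% of all tested genes that passed. FDX1, a ferredoxin needed for lipoylation, was at -0.40 (SE 0.0742, edgeR adjusted p = 2.48e-04), PDHA1, the most abundant by FPKM, at -0.41, DLD at -0.36 and the lipoyl transferase LIPT2 at -0.54. MTF1, the metal-responsive transcription factor, rose by 0.22 (edgeR adjusted p = 0.0368); it did not pass with DESeq2 (0.105) or when oeALKBH5 replicate 1 or 2 or any control replicate was left out (edgeR, 0.0592 to 0.161). Of 12 reductases and other copper-binding or control genes 2 rose and 3 fell, in both directions near the 20.8% and 22.0% of all tested genes. APP, the amyloid precursor, rose from 371 ± 3.83 to 448 ± 13.1 CPM (0.27, SE 0.0435), and the reductase CYBRD1 from 1.40 ± 0.191 to 2.51 ± 0.344. The glutaredoxin GLRX fell by 0.56, the reductase STEAP3 by 0.32 and SP1, a transcription factor, by 0.21, the last not passing with library size alone (edgeR adjusted p = 0.0675).

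Metallothioneins, which bind copper as well as zinc, were higher in 7 of 8 tested genes, beside 20.8% of all tested genes, with MT2A the most abundant. Their summed level was 1072, 937 and 997 CPM in oeALKBH5 and 286, 276 and 278 in control.

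**Figure D5:**
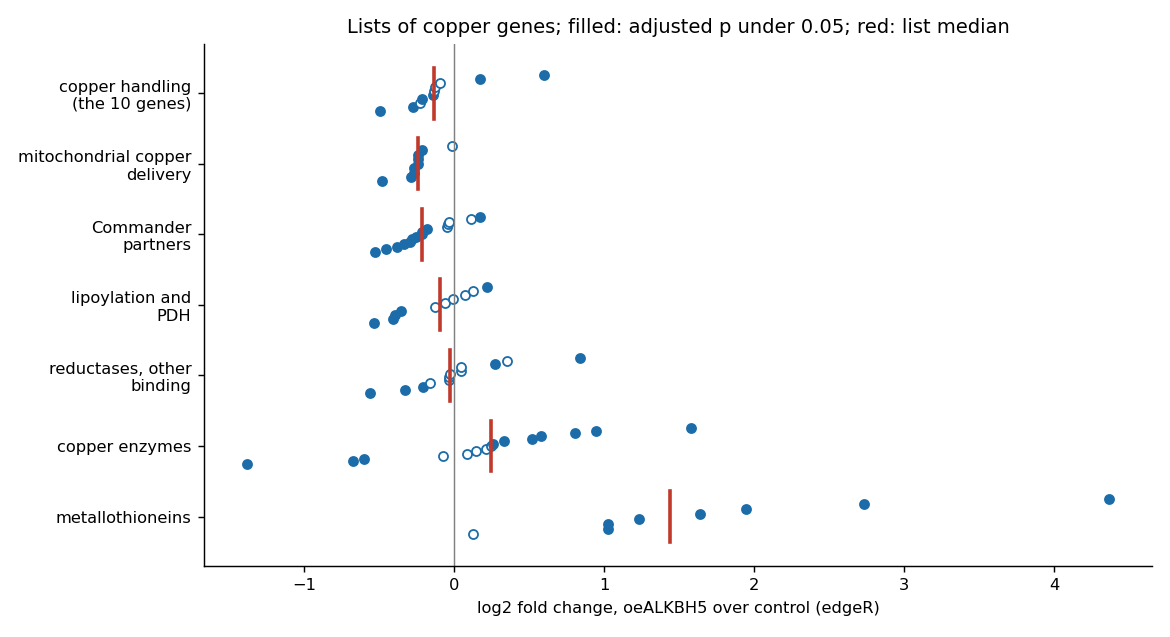
Log2 fold change of each tested gene in the 10 copper handling genes and the 6 other lists (edgeR); filled points passed an adjusted p of 0.05 and the red bar is the list median. The mitochondrial delivery list lies wholly below 0 (8 of 9 passing) and the metallothioneins wholly above it (7 of 8 passing). The copper enzymes list spreads from AOC1 at -1.38 to LOXL2 at 1.58.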

How the data were processed

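RNA-seq of 6 Huh-7 libraries was used as the authors deposited it: estimated counts per RefSeq transcript, not scaled between libraries, and FPKM for the same transcripts. The build GRCh38.p13 and the tools RSEM 1.2.8, HISAT2 2.1.0 and Bowtie2 2.2.5 are listed per the submitters' processing notes; what each did, and whether strand was used, is not given in the sources used here. Transcripts were summed by Entrez identifier (symbols for 17881 of 18030 genes) and the sums rounded. The main test was edgeR 4.0.16 in R 4.3.3 (TMM, filter at a minimum count of 10, robust quasi-likelihood fit on group, two-sided, Benjamini-Hochberg). Standard errors come from dividing the size of the log2 fold change by the root of the F statistic, and 95% intervals use the fit's degrees of freedom. For FPKM, limma 3.58.1 was run on log2(FPKM + 1) where a gene reached 1 in 3 libraries, a scale that understates changes of low genes. Ratios used exact permutation tests. Alternatives were other scalings and filters, DESeq2 1.42.0, limma-voom, a replicate block, each library left out in turn and a threshold of 0.01. Scripts were tested on simulated data. Libraries of a group all differed by more than counting noise (chi-square per degree of freedom 1.67 to 7.50).

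The 10 genes and all lists were chosen with earlier results of these data known. All 10 were named, then per other list up to 3 risers and 3 fallers by p and the most abundant member, and transcripts with at least 10% of a gene's FPKM. COX11 and LIPT2 were named after their values were seen. Figures used matplotlib 3.10.9.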

Additional observations from a re-analysis of the deposited data

How the results depend on the processing

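Of 140 values of the 10 genes' log2 fold changes under the alternatives to the edgeR fit, 129 kept their direction and their side of the threshold, 6 lost a call, 5 gained one and 0 changed direction. CP and SOD1 passed in all of these fits, as did SCO1. The number of higher genes was 1 at an adjusted p under 0.01, and 1 to 2 with a library left out; the number of lower genes was 3 to 6 with a library left out. The genes' median was -0.057 with library size alone and -0.17 to -0.12 with a library left out. On FPKM the number of lower genes was 1 without the filter, 0 with FPKM rescaled to the same sum and 0 to 3 with a library left out. With that rescaling the median was 0.012, and SLC31A1 (0.012), ATOX1 (0.027) and CCS (0.058) turned positive without passing. With a library left out the FPKM median was -0.080 to -0.032, SLC31A2 -0.13 to 0.035 and CCS -0.057 to 0.029. Of the ATP7B transcripts, NM_000053.4 was at 0.074 with library size alone and at -0.40 to 0.26 with a library left out, and NM_001330578.1 at -1.44 to 0.22. The number of higher transcripts was 0 to 1 with a library left out. Among the other lists, library size alone gave 5 lower mitochondrial delivery genes, 6 lower Commander genes and 2 higher lipoylation genes, and upper quartile scaling also 2 of the last. At an adjusted p under 0.01 Commander genes were 0 higher and 6 lower and lipoylation genes 0 higher, as the last were with DESeq2; with a library left out each of these lists had 0 to 1 higher. The cause of these differences was not tested. Over all genes the calls were 2948 higher and 3114 lower, and with library size alone 4266 and 2047, with a median of 0.09.

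Replicate numbers did not pair the libraries: deviations of same-numbered libraries correlated at -0.001, 0.02 and 0.00 across genes. With the replicate block 2 of the 10 genes were higher and 4 lower, as without it, while over all genes 3128 were higher and 3341 lower, and 0 of the 33 transcripts passed. Depth limits ATP7A most, at 59 to 97 estimated counts per library.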

Other observations

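The 3 oeALKBH5 libraries differed in ALKBH5 itself (169, 133 and 110 CPM in replicates 1, 2 and 3). CP, ATP7B, ATP7A and ATOX1 stood in the same order as ALKBH5 over these libraries, and SOD1, SCO1 and CCS in the reverse order. Together 7 of the 10 genes followed either order, beside 44.3% of the other 14167 tested genes. For ATP7A and ATOX1 the order ran against the group change. Both were highest in the library with the most ALKBH5, yet their log2 fold changes were -0.50 and -0.13. With 3 libraries no test of such an order was made.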
